A study of Mus musculus with 127 samples.

Results

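Of 127 single cells in this series, all labelled as erythroblasts, 30 were Flvcr-deleted cells of Ter119 classes B, C and D. These 30 were divided by their Gata1 transcript level. The division was chosen on the measured value itself: 14 cells had Gata1 at 1 RPKM or more (reads scaled to transcript length and sequencing depth) and 16 had less. The Gata1 values below therefore describe how the cells were selected and are no finding. The comparison asks which other transcripts differed between Flvcr-deleted erythroblasts with and without detected Gata1 mRNA, and how that relates to the number of genes detected per cell.

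The cells came from the marrow of C57BL/6J mice and were labelled as erythroblasts. The series held 48 cells from mice with Flvcr deleted, 48 from wild-type mice and 31 from wild-type mice given erythropoietin (EPO), the kidney hormone that expands the erythroid lineage. The labels gave no age, no sex, no EPO dose or time, no transgene or cell type in which Flvcr was deleted, and no animal for any cell. All 48 Flvcr-deleted cells bore 1 column name prefix, whose meaning the labels do not give. No such prefix was shared between the groups, so group and prefix cannot be told apart. Each genotype therefore counted as 1 sample. No p-value was computed, no difference below has a replicate check, and every SD is taken over cells and describes those cells alone. The class letters follow the fluorescence of Ter119, a surface antigen that increases as erythroblasts mature. The 30 cells comprised 16 of class B, 9 of class C and 5 of class D.

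GATA1 is the zinc finger transcription factor that commits progenitors to the red cell lineage and activates the genes for globins, heme synthesis enzymes and red cell membrane proteins, together with partners such as FOG1, TAL1 and LMO2. Flvcr encodes an exporter of heme, and without it heme accumulates in early erythroblasts and red cell maturation fails. Heme itself regulates transcription and translation of globin in these cells. The deletion itself could not be checked on the transcript: Mfsd7b, the older symbol for Flvcr1, was listed at 0 in all 30 cells and also in all 42 wild-type cells of classes B to D.

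No cell lay between 0 and 1 RPKM, so the 16 undetected cells were all listed at 0, and the lowest values on the detected side were 1.28, 1.76 and 2.17 RPKM in cells 20, 12 and 38. Cells 45, 35, 44 and 26 had 2.67, 6.57, 6.61 and 7.03 RPKM. Intermediate values of 12.9, 17.6, 18.7, 36.1 and 51.3 RPKM were found in cells 7, 43, 16, 32 and 22. Cells 18 and 1, both of class B, stood above the rest with 214 and 215 RPKM. Read depth was estimated by taking the most common length-corrected value of a cell as 1 read. These levels then corresponded to about 6.9 Gata1 reads in cell 20 and 1258 in cell 18. In the undetected cells, 3 reads would have given between 0.322 and 2.13 RPKM (median 0.445), and only in cell 31, which had an estimated 0.741 M reads, would they have exceeded 1 RPKM. This limit covers counting error only, not molecules lost before sequencing.

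Gata1 was detected in 7 of 16 class B cells, 4 of 9 class C cells and 3 of 5 class D cells, 46.7% of the 30 (exact 95% interval 28.3 to 65.7%, for counting error only). In wild-type cells of the same classes it was detected in 41 of 42 (97.6%, interval 87.4 to 99.9%), with a median of 131 RPKM over the 41 detected cells (7.71 to 523 RPKM). Among EPO-treated cells of these classes the share was 13 of 24 (54.2%, interval 32.8 to 74.4%), with a median of 48.2 RPKM over the detected cells. In Flvcr-deleted cells of the least Ter119-bright class A it was 3 of 18 (16.7%, interval 3.58 to 41.4%). The wild-type cells also held more detected genes, with a median of 2243 in their 41 Gata1-detected cells, so these shares were taken at unlike depths of detection. The groups also bore different column name prefixes, so group and prefix cannot be told apart in these shares. Nor were the class letters on 1 scale: the median Ter119 value over classes B to D was 0.489 in the 30 cells and 0.203 in the EPO-treated cells.

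Gata1-detected cells had more detected genes than undetected cells. A gene was counted as detected at 1 RPKM or more, and the median was 1649 genes per cell on the detected side (825 to 3405, n = 14 cells) against 947 on the undetected side (645 to 3452, n = 16 cells). The ranges overlapped across nearly their whole length. Within class B the medians were 2087 and 1026, and within class C 1775 and 822. In class D they ran the other way, 1214 in 3 cells against 1440.5 in 2 cells. Put differently, Gata1 was detected in 2 of 11 cells with fewer than 1000 detected genes (18.2%), in 7 of 12 with 1000 to 2000 (58.3%) and in 5 of 7 with more than 2000 (71.4%).

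Sequencing depth did not differ in the same way. Estimated reads had a median of 3.39 M on the detected side (2.04 to 4.07 M) and 3.55 M on the undetected side (0.741 to 4.898 M). What did differ was the share of the summed RPKM taken by 11 globin genes, with a median of 79.96% in Gata1-detected cells (0.320 to 96.1%) and 93.7% in undetected cells (0.375 to 97.4%). Over the 30 cells, Spearman's rho of Gata1 was 0.53 with detected genes, -0.47 with the globin share, -0.17 with reads and 0.16 with Ter119 fluorescence. Detected genes and globin share were themselves related with a rho of -0.90. All of these come from the same libraries, and globin share and detected genes divide the same reads, so the values are given as a description. Ter119 fluorescence, which was imaged and is independent of the RNA, had medians of 0.530 and 0.458 on the detected and undetected sides, and was higher on the detected side within each class (0.412 and 0.331 in B, 0.661 and 0.591 in C, 0.886 and 0.838 in D).

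**Figure D1:**
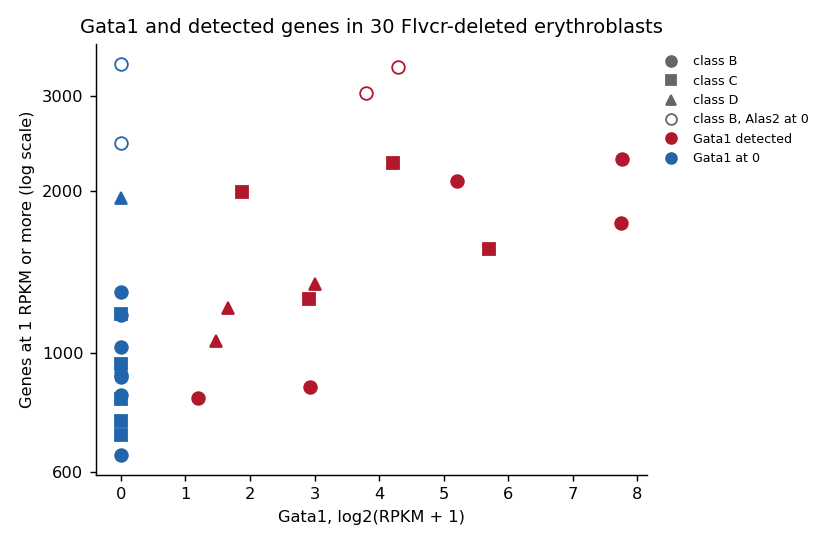
Gata1 level, as log2(RPKM + 1), against the number of genes at 1 RPKM or more (log axis) in each of the 30 Flvcr-deleted cells, with 14 Gata1-detected cells in red and 16 cells at 0 in blue; shapes give the class and open circles mark the 4 cells with Alas2 at 0. Of the 11 cells under 1000 detected genes only 2 are red, and the 2 highest Gata1 values belong to cells with 1741 and 2294 detected genes.

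Both sides carried transcripts of erythroblasts. Of 14 erythroblast markers, Gata1 among them, detected-side cells had 9 to 14 and undetected-side cells 7 to 12, with medians of 11.5 and 11. Gata1 set the sides, so it counts in every detected-side cell and in no undetected-side cell. These marker numbers therefore do not compare the sides. Their summed level was 896 to 635883 RPKM on the detected side and 1060 to 750535 on the undetected side. No cell had 3 or more markers of granulocytes, B or T lymphocytes, megakaryocytes, mast cells, macrophages or early progenitors. The summed level of any one of these lists was at most 46.8 RPKM in a detected-side cell and at most 154 RPKM, for megakaryocyte markers, in an undetected-side cell. Markers of B lymphocytes were at 0 in all 30 cells. Within class B, 4 cells stood apart: cells 7 and 16 on the detected side and cells 13 and 40 on the undetected side had Alas2 at 0, globin shares of 0.320 to 2.71% where the other 26 cells had 48.2 to 97.4%, and 3044, 3405, 3452 and 2455 detected genes. They fell 2 to each side of the division. Without them the median number of detected genes was 1450 on the detected side and 926 on the undetected side.

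Most transcripts were higher in the Gata1-detected cells, which was also the side with more detected genes. For each gene the difference of mean log2(RPKM + 1) was taken, detected minus undetected, over the 2012 genes other than Gata1 with a mean of at least 1 on this scale in the 30 cells. This scale understates the change of genes near 0. Of these, 1673 (83.2%) were higher on the detected side, and the median difference was 0.82. The median was 0.89 within class B, 1.47 within class C and -0.15 within class D, where the detected side had the fewer detected genes. In all, 857 genes were higher by at least 1, which is 42.6% of those compared, and 52 (2.58%) were lower by at least 1. Requiring also the same sign in each of the 3 classes left 329 genes higher (16.4%) and 27 lower (1.34%), called past the fold below. No gene separated the sides: in each of the 2012, the values of Gata1-detected and undetected cells overlapped.

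A narrower comparison brought the sides closer in detection. Among cells with 1000 to 2000 detected genes, 7 were on the detected side (median 1343) and 5 on the undetected side (median 1179), with medians of 3.55 M estimated reads on both. The median difference of the 2012 genes was 0.27 there, with 581 genes (28.9%) higher and 357 (17.7%) lower by at least 1. These 12 cells were unlike in maturity: the detected side held 1, 3 and 3 cells of classes B, C and D with a median Ter119 value of 0.717, and the undetected side 3, 1 and 1 with 0.422. In a fit of each gene on the side and on the log2 number of detected genes over all 30 cells, the median difference at equal detected genes was 0.03. The part of detected genes, globin share or maturity in any single difference was not tested.

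**Figure D2:**
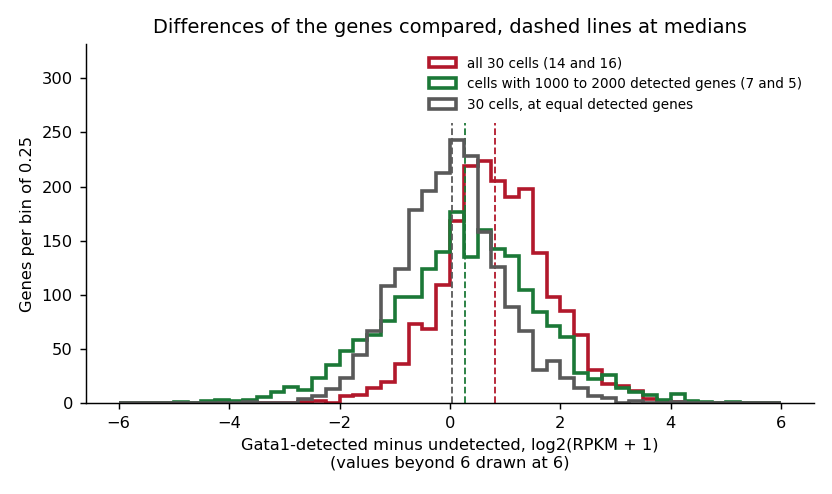
Number of genes per bin of 0.25 by the difference of mean log2(RPKM + 1) between Gata1-detected and undetected cells, for the 2012 genes compared, in all 30 cells (red), in the 12 cells with 1000 to 2000 detected genes (green) and in all 30 cells at equal detected genes (grey). The dashed medians move from 0.82 in the first to 0.27 and 0.03 in the others.

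Of 12 erythroid transcription factors and GATA1 partners compared, none was past the fold in either direction, beside 16.4% higher and 1.34% lower among all genes. Their median difference was 0.50 against 0.82 over all genes. It was 0.25 without the 4 cells that had Alas2 at 0, -0.23 among cells with 1000 to 2000 detected genes, where all genes had 0.27, and 0.03 at equal detected genes, where all genes also had 0.03. Klf1, the factor that activates adult beta-globin, was detected in 9 of 14 Gata1-detected and 12 of 16 undetected cells, with medians of 9.98 and 23.4 RPKM and a difference of -1.03. Its sign differed between classes, at -0.54 in B, 0.28 in C and -5.10 in D, and the difference was 0.23 when the sides were divided at 10 RPKM of Gata1 instead of 1 (7 and 23 cells). Tal1 and Lmo2, members of the DNA-bound complex with GATA1, had differences of 0.82 and 0.17, and Zfpm1, which encodes FOG1, of 0.47. Nfe2, an activator of globin genes, was detected in 8 and 4 cells with a difference of 1.38, and the repressor Gfi1b in 6 and 6 with 0.87. Without the 4 cells that had Alas2 at 0, Gfi1b had 0.21, Klf1 -0.69, Lmo2 0.61 and Zfpm1 0.28. Gata2, the progenitor factor that GATA1 normally replaces, was seen in 2 of 14 and 3 of 16 cells, and the progenitor receptor Kit reached 1 RPKM in none of the 30.

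Of 33 compared genes that GATA1 is known to activate, 4 were higher past the fold (Hemgn, Ank1, Add2 and Uros) and 1 was lower (Tspo2), beside 16.4% and 1.34% of all genes. A positive sign was found for 19 of the 33, beside 83.2% of all genes. The list's median difference of 0.27 lay below the 0.82 of all genes, and among cells with 1000 to 2000 detected genes it was 0.21 beside 0.27. This list contains the heme synthesis enzymes and several membrane genes described below.

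Hemgn, which encodes the erythroid nuclear protein hemogen, had the highest difference of the list. In Gata1-detected cells its level was at least 1.33 RPKM in all 14, with a median of 266 and a highest value of 1196 RPKM. In the 16 undetected cells it ranged from 0 to 367 RPKM with a median of 21.0, and 11 of them had 1 RPKM or more. The detected side was thus mostly high and the undetected side spread over the whole range, with means of 7.28 ± 2.39 (SD, n = 14 cells) and 3.89 ± 3.25 (SD, n = 16 cells) on the log2 scale. The difference was 3.39 over all cells, 3.76 in class B and 3.54 in class C. In class D it was 0.10, where both undetected cells, 15 and 23, carried 367 and 311 RPKM. It was 3.14 among cells with 1000 to 2000 detected genes, 4.04 at equal detected genes and 3.65 without the 4 cells that had Alas2 at 0; with both changes together it was 2.63. Divided at 10 RPKM of Gata1 it was 1.92; cells 45 and 38, with 2.67 and 2.17 RPKM of Gata1, then fall on the undetected side and had 332 and 301 RPKM of Hemgn.

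The promoters of Hemgn, Alas2 and Klf1 are shown because each of these GATA1-activated genes holds a GATA motif close to its start. Of these genes only Hemgn was higher past the fold. Alas2 had a difference of -0.54 over all cells and 1.83 at equal detected genes, and Klf1 had -1.03 and -1.16. The sequences are the 250 bases before the RefSeq transcription start in GRCm38.p6, written 5′ to 3′ on the gene's strand, at chr4:46404184-46404433 (minus strand) for Hemgn, chrX:150547167-150547416 (plus strand) for Alas2 and chr8:84901732-84901981 (plus strand) for Klf1. Capitals mark AGATAA or TGATAA, or the reverse complement of either.
Hemgn: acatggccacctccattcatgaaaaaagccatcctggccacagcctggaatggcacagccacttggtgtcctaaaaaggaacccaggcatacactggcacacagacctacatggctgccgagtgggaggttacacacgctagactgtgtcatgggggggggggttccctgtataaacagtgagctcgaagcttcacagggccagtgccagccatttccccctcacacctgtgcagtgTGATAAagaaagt
Alas2: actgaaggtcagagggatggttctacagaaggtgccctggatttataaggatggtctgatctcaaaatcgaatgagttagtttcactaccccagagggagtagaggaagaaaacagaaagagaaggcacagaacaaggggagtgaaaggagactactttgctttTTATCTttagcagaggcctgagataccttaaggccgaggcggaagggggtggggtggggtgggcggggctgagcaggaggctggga
Klf1: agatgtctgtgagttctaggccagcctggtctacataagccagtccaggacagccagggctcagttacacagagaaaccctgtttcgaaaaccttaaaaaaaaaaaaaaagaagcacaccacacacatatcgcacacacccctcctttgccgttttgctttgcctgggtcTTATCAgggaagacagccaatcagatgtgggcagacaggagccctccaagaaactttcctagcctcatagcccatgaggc
The last base of the motif lies 8 bases before the start in Hemgn, 81 in Alas2 and 75 in Klf1. Searched on both strands of the same 250 bases, the motif was present in 5452 of 32851 promoters (16.6%), in 204 of the 1646 compared genes with a matched promoter (12.4%) and in 14 of 23 matched GATA1-activated genes (60.9%). It was present in 35 of 272 matched genes that were higher past the fold (12.9%) and in 6 of 25 that were lower (24.0%). A match is only an occurrence of these letters, and the build named in the submitters' processing notes is mm9, an older one.

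Heme synthesis genes had a median difference of 0.61 over 11 genes, against 0.82 over all genes. Uros alone was past the fold, beside 16.4% higher and 1.34% lower among all genes. Alas2, the erythroid enzyme of the first step of heme synthesis, was detected in 12 of 14 and 14 of 16 cells with medians of 334 and 243 RPKM and a difference of -0.54. Its highest values were 1790 RPKM on the detected side and 1661 on the undetected side, and the sides overlapped over the whole range. The difference was -0.09 among cells with 1000 to 2000 detected genes. At equal detected genes it was 1.83, and 0.99 once the 4 cells with Alas2 at 0 were also left out. Uros, the uroporphyrinogen synthase, was detected in 11 and 9 cells with a difference of 1.29, and Urod, the next enzyme, in 11 and 11 with 1.20 but the opposite sign in class B (-0.87). Fech, which inserts iron into the porphyrin ring, had a difference of 0.27, and Ppox, the step before it, -0.83. Tmem14c, a transporter of porphyrin precursors in mitochondria, had a difference of 2.08 that was largest in class C (6.74, against 0.58 in B and -1.42 in D). The mitochondrial importers Slc25a37, for iron, and Slc25a38, for glycine, had differences of -0.50 and 0.83.

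All 11 globin genes were lower on the detected side in the 30 cells, where 83.2% of all genes were higher. Their median difference was -0.57, and none was past the fold. Hbb-b1, adult beta-globin, had a median of 128061 RPKM in Gata1-detected and 225337 RPKM in undetected cells, and a difference of -0.58. Hba-a1, adult alpha-globin, had medians of 174006 and 350994 RPKM and a difference of -0.51, which was -0.84 without the 4 cells that had Alas2 at 0. Adult globin genes are near-identical copies whose reads may be split or shared, so they do not count as separate observations. The sign was not stable. The list's median was -0.01 among cells with 1000 to 2000 detected genes and 1.48 at equal detected genes, and the latter became 0.19 once the 4 cells with Alas2 at 0 were left out. Hba-x, the embryonic zeta-like chain, was detected in 11 and 12 cells, with a difference of -1.06.

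Red cell membrane genes had a median difference of 0.14 over 21 genes, against 0.82 over all genes. Of the 21, 2 were higher and 1 lower past the fold, beside 16.4% and 1.34% of all genes. Ank1, which anchors the spectrin skeleton to the membrane, was detected in 11 of 14 and 11 of 16 cells, with medians of 10.9 and 1.74 RPKM and a difference of 1.67. Slc4a1, the band 3 anion exchanger, had a difference of -0.76, and Epb4.2, which binds band 3, of 0.87. Ermap, an erythroid membrane protein, was detected in 8 and 14 cells with a difference of -1.78, of one sign in B and C and of the other in D.

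Tspo2, an erythroid cholesterol-binding membrane protein, was lower in Gata1-detected cells. Its median was 37.1 RPKM on the detected side (0 to 267) and 286 RPKM on the undetected side (0 to 708). Values overlapped, but 9 of the 16 undetected cells exceeded the highest detected one. The means were 4.82 ± 2.64 (SD, n = 14 cells) and 6.75 ± 2.94 (SD, n = 16 cells), and the difference of -1.93 was -2.91 among cells with 1000 to 2000 detected genes. It depended on where Gata1 was divided: at 10 RPKM the difference was 0.89.

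Only 4 EPO signalling genes could be compared, of which 2 were higher and 1 lower past the fold, beside 16.4% and 1.34% of all genes. Cish, a STAT5 target that dampens cytokine receptor signalling, had a median of 5.90 RPKM on the detected side (0 to 604) and of 0 on the undetected side (0 to 310). It was detected in 11 of 14 cells (78.6%, exact interval 49.2 to 95.3%) and 5 of 16 (31.3%, 11.0 to 58.7%), intervals for counting error only. The difference was 2.18, with 1.76, 2.36 and 1.59 in classes B, C and D. It was 2.81 both among cells with 1000 to 2000 detected genes and at equal detected genes. Divided at 10 RPKM of Gata1 it was -0.79, and the 4 highest Cish values of the detected side, 604, 429, 144 and 129 RPKM, were in cells 44, 38, 45 and 26, which had 2.17 to 7.03 RPKM of Gata1. Ccnd3, the cyclin that sets how often erythroblasts divide before they mature, was detected in 9 and 2 cells with a difference of 3.00, which was 0.25 among cells with 1000 to 2000 detected genes. Fam132b, which encodes the iron hormone erythroferrone, had a difference of -1.01. Epor, the EPO receptor and itself a GATA1 target, was too low to be compared with the rest: it reached 1 RPKM in 5 detected-side cells, at 3.25, 9.23, 28.4, 31.6 and 84.2 RPKM, and in 1 undetected-side cell, at 1.01 RPKM. The values of 31.6 and 84.2 RPKM belonged to cells 7 and 16, which had Alas2 at 0, and the difference of 1.55 was 0.85 without the 4 such cells. Bcl2l1, the survival gene induced by EPO, was detected in 2 and 1 cells.

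Over 10 iron genes the median was 0.46, against 0.82 over all genes. Of the 10, 7 had a positive sign, none was higher and 2 were lower past the fold, beside 83.2%, 16.4% and 1.34% of all genes. Tfrc, the transferrin receptor, detected in 13 and 15 cells, had a difference of 1.02 that was -0.49 among cells with 1000 to 2000 detected genes. Ncoa4, which targets ferritin for breakdown, had -1.17 over all cells and 1.07 in that range. Hmox1, the heme-degrading oxygenase, was seen in 1 cell on each side. Of 18 heme and oxidative stress genes, 16 had a positive sign, beside 83.2% of all genes, and 3 were higher and none lower past the fold, beside 16.4% and 1.34%. Their median was 0.43 against 0.82 over all genes. Mt2, a metal-binding metallothionein, was detected in 8 of 14 and 2 of 16 cells with a difference of 3.12, which was 0.61 at equal detected genes and 1.41 when the 4 cells with Alas2 at 0 were also left out.

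**Figure D3:**
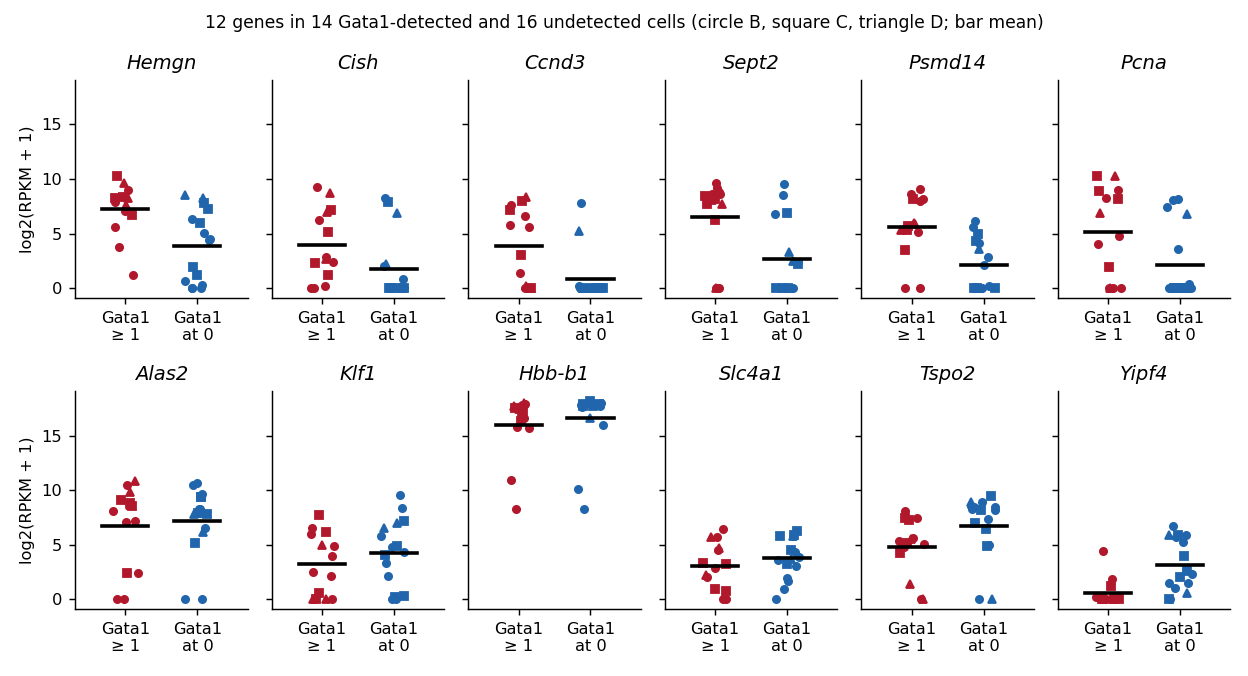
Levels of 12 genes as log2(RPKM + 1) in each of 14 Gata1-detected (red) and 16 undetected (blue) cells, with circles, squares and triangles for classes B, C and D and a bar at the mean. The upper row holds genes that were higher past the fold, such as Hemgn (means 7.28 and 3.89); in the lower row Alas2 and Hbb-b1 overlap throughout, and Tspo2 and Yipf4 are lower on the detected side.

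DNA replication genes had the highest median of all lists, 1.86 over 28 genes, against 0.82 over all genes. Of the 28, 27 had a positive sign, beside 83.2% of all genes. Past the fold, 10 were higher and none was lower, beside 16.4% and 1.34% of all genes. Pcna, the sliding clamp of the replication fork, was detected in 10 of 14 and 5 of 16 cells, with medians of 69.8 and 0 RPKM and a difference of 3.03, ranging from 0.67 in class B to 7.32 in class C. Uhrf1, which guides maintenance methylation behind the fork, was detected in 12 and 8 cells with a difference of 2.98. In cells with 1000 to 2000 detected genes the list's median was 1.31, beside 0.27 over all genes. There 15 of 28 were higher by at least 1 and none lower, beside 28.9% and 17.7% of all genes. At equal detected genes the list's median was 0.77 beside 0.03, and 0.51 when the 4 cells with Alas2 at 0 were also left out. Within class D it was -0.18.

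Over 46 mitosis genes the median was 0.74, and -0.27 among cells with 1000 to 2000 detected genes. Of these, 12 were higher and 2 lower past the fold, beside 16.4% and 1.34% of all genes. Mad2l1, of the spindle checkpoint, was detected in 11 and 5 cells with a difference of 3.13, which was 0.89 among cells with 1000 to 2000 detected genes and 0.02 in class D. Tacc3, a spindle protein, was detected in 11 and 7 cells with 2.84, and 4.23 in that range. Pttg1, the securin that holds sister chromatids together, was lower on the detected side by contrast, in 4 and 9 cells with -1.63, but had -0.01 among cells with 1000 to 2000 detected genes and -0.46 at equal detected genes without the 4 cells that had Alas2 at 0. Among genes of cell cycle exit, E2f4 had 2.03 without a common sign in the classes. Btg1, an antiproliferative gene, was lower past the fold: it was detected in 6 of 14 and 12 of 16 cells, with medians of 0.481 and 69.8 RPKM and a difference of -2.45.

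The lists of general cell machinery were higher on the detected side, except in class D. Over all genes compared, 83.2% had a positive sign and the median difference was 0.82. Ribosomal proteins had a median of 1.20 with all 81 positive, the respiratory chain 1.18 with 70 of 72 positive, the proteasome 1.34 with 29 of 31 positive, and heat shock proteins 1.34 with 16 of 18 positive. All of these were negative in class D, at -1.48, -1.18, -1.65 and -1.52. At equal detected genes they were 0.19, -0.10, 0.11 and -0.37, and 0.02, -0.33, 0.07 and -0.30 when the 4 cells with Alas2 at 0 were also left out. Rpl8, a protein of the large ribosomal subunit, was present at 1 RPKM or more in all 30 cells, with medians of 830 and 57.0 RPKM and a difference of 3.20; ribosomal protein genes have processed copies that can take up their reads. Hspa8, the constitutive heat shock cognate, was detected in 11 and 5 cells with a difference of 4.28, yet -0.33 in class D, and its rho with detected genes was 0.88. Atp5g1 and Ndufb10, of ATP synthase and complex I, had 3.90 and 3.55 with rho of 0.84 and 0.81 with detected genes.

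**Figure D4:**
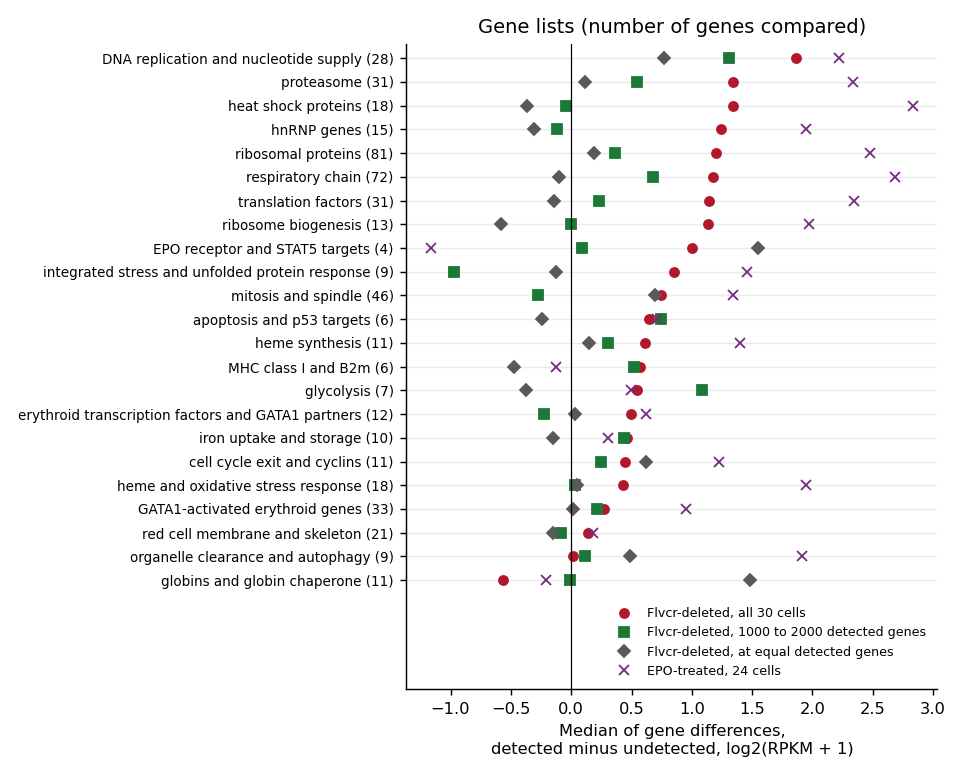
Median over each gene list of the difference of mean log2(RPKM + 1), Gata1-detected minus undetected, in all 30 Flvcr-deleted cells (circles), in those with 1000 to 2000 detected genes (squares), at equal detected genes (diamonds) and in 24 EPO-treated cells (crosses). Lists with a positive median in all 4 include DNA replication (1.86, 1.31, 0.77 and 2.22), ribosomal proteins (1.20, 0.36, 0.19 and 2.47) and the proteasome (1.34, 0.55, 0.11 and 2.34). All genes compared had 0.82, 0.27, 0.03 and 1.38. At equal detected genes the respiratory chain had -0.10.

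The 12 genes with the highest differences among those past the fold were of mixed function. Trappc1, a subunit of a vesicle-tethering complex, led with 4.04: its median was 103 RPKM on the detected side (0 to 512) and 0 on the undetected side (0 to 43.4), and it was detected in 12 of 14 and 6 of 16 cells. Sept2, a septin of the cytoskeleton, had 3.89, and Mrps18c and Mrpl20, of the mitochondrial ribosome, 3.71 and 3.25. The phosphatase Ptp4a2 had 3.63 and the membrane protein gene Tmem208 3.44. Psmd14, the deubiquitinase of the proteasome lid, was detected in 12 and 8 cells with medians of 55.1 and 1.74 RPKM and had 3.51. The proteasome core subunit Psma1 had 3.30, Med21 of the Mediator complex 3.39, the complex I subunit Ndufa1 3.29 and the RNA-binding protein gene Zranb2 3.28. Of these 12 genes, which include Hemgn, all but Mrps18c (0.18) differed by at least 2.78 among cells with 1000 to 2000 detected genes. Those cells are among the ones that chose the genes, so this is no independent evidence. Of all genes compared, 28.9% were higher by at least 1 there, and the share at 2.78 is not given. At equal detected genes several of the 12 differences were smaller: Sept2 had 1.69, Ndufa1 1.94, Tmem208 2.08, Psma1 2.13, Mrpl20 2.22, Ptp4a2 2.32 and Mrps18c 2.33. Sept2 had a rho of 0.85 with detected genes.

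Fewer genes were lower. Yipf4, which encodes a Golgi membrane protein, had the lowest difference past the fold, -2.64. It was detected in 3 of 14 Gata1-detected cells (21.4%, exact interval 4.66 to 50.8%) against 13 of 16 undetected cells (81.3%, 54.4 to 96.0%). These intervals cover counting error only. The gene was chosen by its rank in these same cells, so the intervals are no evidence of a difference. The median of Yipf4 was 0 RPKM on the detected side (0 to 21.1) and 4.69 RPKM on the undetected side (0 to 108). The uncharacterised gene 2810474O19Rik was detected in all 16 undetected cells (3.69 to 169 RPKM, median 58.2) and in 9 of 14 detected ones (0 to 70.1 RPKM, median 14.7), a difference of -2.40. Tubgcp4, of the gamma-tubulin ring, had -1.99. The RNA helicase Ddx39 and the sialic acid enzyme Cmas both had -1.64, and the mitochondrial peptidase Pitrm1 -1.54. Htatip2, the histone gene Hist1h2bc and the ubiquitin ligase adaptor Fbxo30 closed the 12 lowest at -1.48, -1.46 and -1.38, and of these Htatip2 had 0.46 and Hist1h2bc -0.02 among cells with 1000 to 2000 detected genes. These genes ran against the general shift toward the side with more detected genes.

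Part of both sets still differed by at least 1 in each closer comparison. Of the 329 higher genes, 218 (66.3%) were higher by at least 1 among cells with 1000 to 2000 detected genes, 155 (47.1%) at equal detected genes and 317 (96.4%) without the 4 cells that had Alas2 at 0, and 120 (36.5%) met all 3. Of the 27 lower genes, 12 (44.4%) met all 3 with the sign reversed: 2810474O19Rik, Ampd3, Btg1, Cmas, Ddx39, Glo1, Pam16, Pitrm1, Tspo2, Tubgcp4, Txnrd2 and Yipf4. Among all genes compared, 28.9% were higher and 17.7% lower by at least 1 in cells with 1000 to 2000 detected genes. Such shares of all genes are not given for the other settings, so persistence there has no background beside it. All 3 settings use the same cells that chose the genes, so they are no independent evidence.

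EPO-treated erythroblasts of classes B to D, which share no cell with the 30, were divided by the same Gata1 rule into 13 detected and 11 undetected cells. Their columns may have been processed apart, so differences were taken only within them. EPO-treated cells 28, 29 and 31 bore another column name prefix than the rest. Their Ter119 values were 0.00064, 0.0023 and 0.0026. Here too the detected side had more detected genes, with a median of 1718 against 1056, a globin share of 60.9% against 70.5%, and a median difference of 1.38 over the 2012 genes, of which 1207 (60.0%) were higher and 62 (3.08%) lower by at least 1. Of the 329 genes higher in Flvcr-deleted cells, 216 (65.7%) were higher by at least 1 in EPO-treated cells, a share near the 60.0% of all genes. Of the 27 lower genes, 1 was lower by at least 1 (3.70%, beside 3.08% of all genes) and 12 were higher by at least 1 (44.4%). Of the 12 lower genes that were lower by at least 1 in all 3 closer comparisons, none was lower by at least 1 in EPO-treated cells and 9 were higher by at least 1.

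Single genes differed between the 2 sets in size and sign, and no test of these differences was possible. Sept2 had 3.89 in Flvcr-deleted and 6.20 in EPO-treated cells, and Psma1 3.30 and 4.30. Hemgn had 3.39 and 1.50, being detected in 13 of 13 and 10 of 11 EPO-treated cells. Cish had 2.18 and -2.08, being detected in 5 of 13 and 5 of 11 EPO-treated cells. Trappc1, the highest gene past the fold in Flvcr-deleted cells, had -1.35, and Yipf4, the lowest, had 2.38. Tspo2 had -1.93 and 1.91, Btg1 -2.45 and 1.60, and Ddx39 -1.64 and 5.65. Among lists, GATA1-activated genes had a median of 0.95 in EPO-treated cells, below the 1.38 of all genes. DNA replication genes had 2.22, below ribosomal proteins (2.47), the respiratory chain (2.68) and heat shock proteins (2.83). Globins had -0.21. In wild-type cells of these classes only 1 cell fell on the undetected side, at 0.190 RPKM with 1555 detected genes, so no comparison was made.

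**Figure D5:**
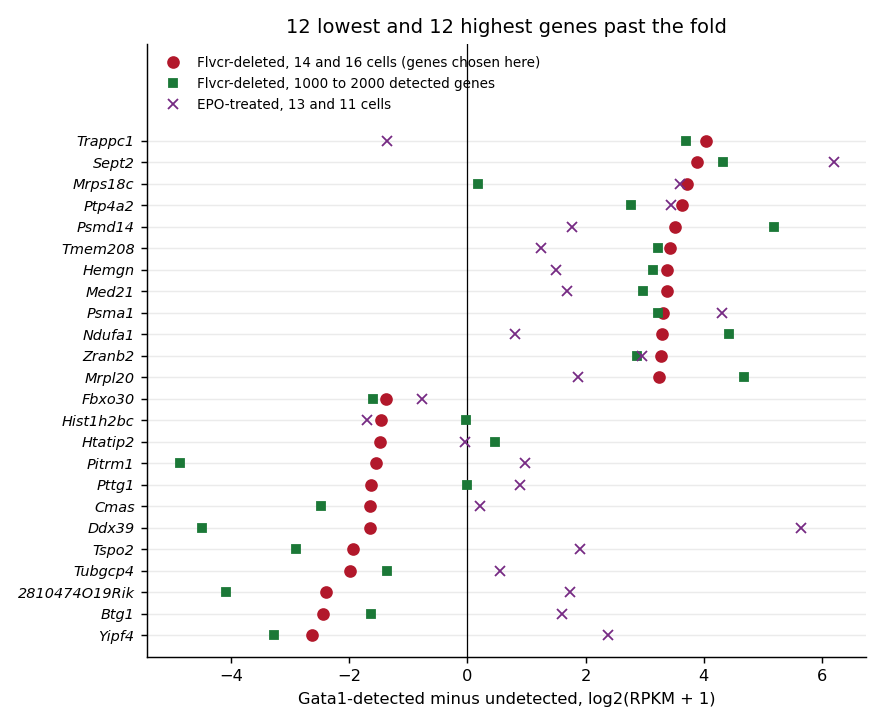
Difference of mean log2(RPKM + 1), Gata1-detected minus undetected, for the 12 lowest and 12 highest genes past the fold in the 30 Flvcr-deleted cells (circles, which chose the genes), among their cells with 1000 to 2000 detected genes (squares) and in EPO-treated cells (crosses). Of the 12 highest genes 11 are above 0 in EPO-treated cells, Trappc1 (-1.35) being the exception. Of the 12 lowest only Hist1h2bc (-1.71), Fbxo30 (-0.77) and Htatip2 (-0.04) are below 0 there. Among all 2012 genes compared, 1673 were above 0 in EPO-treated cells and 335 below.

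The genes whose level was most like that of Gata1 over the 30 cells, by Spearman's rho, were Trappc1 and Ccdc6 (0.72 each), Zranb2 (0.70), Commd4 (0.69), Srpr and Atpif1 (0.67 each), Mrpl57 (0.65) and Ptp4a2 (0.64). The median rho over the 2012 genes was 0.25 and the lowest, for Yipf4, was -0.59. The values of all genes come from the same 30 libraries and share their depth of detection: the 8 genes had a rho of 0.50 to 0.75 with the number of detected genes, and Gata1 itself had 0.53. All 8 genes were chosen by their rho with the level that set the sides, so their contrast between the sides is no evidence. Commd4 was detected in 6 Gata1-detected cells and in none of the undetected ones, where it was listed at 0. It therefore entered the comparison through the detected side alone. Ccdc6, a coiled-coil protein gene, was detected in 8 and 1 cells. Atpif1, the inhibitor of ATP synthase that is needed for heme synthesis in erythroblasts, was the evenest of them: it was detected in all 30 cells, at 96.0 to 319 RPKM (median 249) on the detected side and 51.3 to 428 RPKM (median 124) on the undetected side. Its difference was 0.83, with means of 7.81 ± 0.44 (SD, n = 14 cells) and 6.98 ± 0.79 (SD, n = 16 cells), and it was -0.54 in class D.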

How the data were processed

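The authors deposited RPKM values for RefSeq transcripts, cell by cell. The submitters' processing notes name TopHat2 2.0.9 and the build mm9; which counting tool and cell filter were used is not given in the sources used here. SMART-Seq cDNA was made on a microfluidic chip, per the labels' protocols. A further 4 columns matched no sample and stayed unused. EPO-treated columns are rounded, so their read depth is unknown.

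A gene was 1 symbol, by its row with the highest mean over all cells. Levels are log2(RPKM + 1). Compared were genes whose mean over the 30 cells reached 1. Past the fold means a difference of 1 or more in either direction that kept its sign in classes B, C and D, each with at least 2 cells on both sides. Because no animal is named, no test was made. Shares have exact (Clopper-Pearson) 95% intervals. Read depth was estimated from the most common length-corrected value of a cell, taken as 1 read, with transcript lengths from GENCODE vM21. It is approximate, and 97.6% of rows had a length. Promoters are from RefSeq (GRCm38.p6). The computation used Python 3.11.15, NumPy 2.4.6, pandas 2.3.3 and SciPy 1.17.1 and was checked on simulated data.

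The members and the 32 gene lists, 8 of them markers, were chosen with earlier results of these data known. Named by rule were the 12 highest and 12 lowest genes past the fold, the 3 largest differences of each list, a fixed set around GATA1, heme, globins and EPO, and the 8 genes most like Gata1; Add2, Ampd3, Glo1, Pam16 and Txnrd2 were named for counts after their values were seen. Alternatives varied the pseudocount, filter, scaling, Gata1 threshold, cells and detected genes; 1 alternative was added after seeing the data.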

Additional observations from a re-analysis of the deposited data

How the results depend on the processing

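With a pseudocount of 10, 109 genes were higher and 5 lower past the fold in place of 329 and 27, and the DNA replication median was 0.91. Without a filter on low genes the median difference was 0.17 and that of DNA replication 1.09. Scaling each cell to 1 sum without globins gave a globin median of -1.19. Counted at 10 RPKM, detected genes had a median of 598.5 in undetected cells.

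Dividing at 10 RPKM of Gata1 left 7 and 23 cells and no class D cell on the detected side: 1071 genes were higher and 63 lower, the median difference was 1.58 and the globin median -2.41, cells 7 and 16 being 2 of the 7. Klf1 then had 0.23, Nfe2 -0.35, Urod -2.03, Tspo2 0.89, Ermap 0.025, Cish -0.79, Ddx39 1.04, Pitrm1 0.46 and Hist1h2bc 0.28; the cause was not tested.

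Among cells with 1000 to 2000 detected genes, where the rule was by size alone, 581 genes were higher and 357 lower. There hnRNP genes had a median of -0.12 and heat shock proteins -0.041, and Htatip2 had 0.46, Tfrc -0.49 and Ncoa4 1.07. Fewer classes to meet gave more genes: 94 lower without class B, 85 lower without class C, and 1012 higher and 64 lower without class D. Without class B, Hba-x had 0.48 and Nupr1 -0.19; without class C the DNA replication median was 0.96.

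At equal detected genes 160 genes were higher past the fold and the median difference was 0.028. For this count and that of the next setting the size came from the fit. The sign rule still used the class differences without the fit. Globins had 1.48, DNA replication 0.77, ribosome biogenesis -0.59, the respiratory chain -0.10, translation factors -0.14, hnRNP genes -0.31 and heat shock proteins -0.37. With the 4 cells at Alas2 0 also left out, an alternative chosen after seeing the data, 175 genes were higher, the median difference was 0.023, globins had 0.19, DNA replication 0.51, ribosome biogenesis -0.10, the respiratory chain -0.33, translation factors -0.14 and heat shock proteins -0.30; GATA1-activated genes had -0.36, Tmem14c -1.07, Tfrc -0.55 and Ncoa4 0.20. All 24 list medians moved by less than the log2 of 1.5 under 1 common sum, the mean of class differences, summed rows and without the 4 cells at Alas2 0. Small medians could still change by a large ratio, as that of erythroid transcription factors did without these cells, from 0.50 to 0.25. A Gata1 threshold above 0 left the same 14 and 16 cells, since no cell lay between 0 and 1 RPKM, so it was no check. The threshold of 10 RPKM moved 13 of the 24 list medians by more than the log2 of 1.5. Precision is limited by the number of cells, 14 and 16, and by 1 sample per genotype.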

Other observations

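A few further genes of these lists are given as values. Map1lc3b, which marks autophagosomes, was detected in 14 of 14 Gata1-detected and 14 of 16 undetected cells, with a difference of 1.46 but -1.61 in class D. The chromatin stress protein gene Nupr1 was detected in 9 and 5 cells with a difference of 1.68, and the ribosomal protein gene Rpl10a in 14 and 12 with 2.87. Ldb1, the adaptor that links GATA1 complexes at distant sites, was detected in 2 Gata1-detected cells and listed at 0 in all 16 undetected cells.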
